A study of Mus musculus with 4 samples.

Results

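The osteogenic and chondrogenic lineage genes described here were Runx2, Sp7, Dlx5, Alpl, Spp1, Bglap, Ibsp, Sox9 and Sox5, which are 9 of the 22907 genes named on the array. They were chosen by symbol, as genes of bone and cartilage formation, with earlier results of these data known. The rule itself used none of their measured values. The array carried 15 probes for them. At least 1 probe was well above background for 5 of the 9 genes on each of the 4 arrays, whereas Sp7, Dlx5, Bglap and Ibsp were well above background on none.

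The study examined tumors formed by Bcr-abl+ hematopoietic progenitor cells (HPCs), which carry the fusion oncogene of chronic myelogenous leukemia, in wild-type (Wt) hosts and in hosts lacking Sipa1, a negative regulator of Rap1 signaling. All recipients were C57BL/6Ncr mice aged 8 weeks, 5 per genotype, that received 15000 GFP+ HPCs in Matrigel under the skin, and the tumors were taken on day 12. From each genotype, non-tumor GFP- CD45- Ter119- CD31- cells, called mesenchymal stroma cells (MSCs) here as in the study, and GFP- TCRb+ CD8+ T cells were sorted. RNA of each sort was hybridised to 1 single-colour Agilent array, giving 4 arrays in all: Wt MSCs, Sipa1-/- MSCs, Wt CD8+ T cells and Sipa1-/- CD8+ T cells. The Sipa1 knockout was not limited to a cell type of the host. The tumor cells were injected into both genotypes, so the comparison concerns the host. The MSC gate was negative selection alone, with no surface marker that MSCs must carry. The sources do not state whether mice were pooled for an array. With 1 array per condition there was no spread between animals and no test, so every difference below compares 2 hybridisations.

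Osteoblasts arise from mesenchymal progenitors under the transcription factor Runx2, followed by Sp7 (osterix). Dlx5 is a homeobox factor that acts with them. Mature osteoblasts make alkaline phosphatase (Alpl), osteopontin (Spp1), bone sialoprotein (Ibsp) and osteocalcin (Bglap), and chondrocytes depend on Sox9 together with Sox5 and Sox6. Several of these genes are also used outside the skeleton: macrophages make osteopontin, Runx2 is present in some lymphocytes, and alkaline phosphatase is known from neutrophils and B cells.

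Each level below is the log2 processed signal of a probe minus the 75th percentile of its array, so that 0 marks the signal of that percentile. Levels can be compared between arrays for 1 probe but not between probes. Well above background is the scanner software's own call. Repeated spots of a probe had a median SD of 0.040 to 0.044 log2 units within an array. Ratios of different probes for 1 gene had a median SD of 0.14 in the MSC pair and 0.11 in the CD8+ T pair. Between 60.3% and 65.3% of spots were well above background, and no spot was saturated. A gene counted as measured in a pair where a probe passed the study's signal flags on both arrays, and a 2-fold ratio (1 log2 unit) was the threshold for counts.

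The labels were first checked against the deleted gene and the sorts. Both Sipa1 probes were lower on the Sipa1-/- arrays. One read 3.05 in Wt MSCs, 1.46 in Sipa1-/- MSCs, 3.43 in Wt CD8+ T cells and 1.39 in Sipa1-/- CD8+ T cells. The other read 5.03, 3.78, 5.40 and 3.73 in the same order. Each probe was thus lower in both knockout samples, in which the signal remained well above background. T cell markers summed to 20.8 and 4.78 times the 75th percentile signal in Wt and Sipa1-/- MSCs, against 609 and 624 in the CD8+ T cells, and without Cd2 (4.08 and 0.56 in MSCs) to 3.93, 3.31, 532 and 548. The summed fibroblast markers were 1142 and 2069 in MSCs, against 212 and 317 in CD8+ T cells. Thy1, which T cells also make, was part of that list, and without it the sums were 1099, 1975, 46.8 and 141 in the same order. The Wt MSC array also carried B lineage transcripts, with 12 of 12 markers well above background and a summed signal of 692, against 42.9 in Sipa1-/- MSCs, 32.8 in Wt CD8+ T cells and 24.8 in Sipa1-/- CD8+ T cells. Vpreb1, of the pre-B cell receptor, read 7.57 in Wt and 3.45 in Sipa1-/- MSCs. Rag1 was well above background only there. Neutrophil markers summed to 733 in Wt MSCs and 816 in Sipa1-/- MSCs. In sorted bulk RNA, fewer cells of a type and less RNA per cell cannot be told apart.

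The upstream sequences of 3 matrix genes are shown because Runx proteins bind the letters ACCACA, read as TGTGGT on the other strand, and Runx2 is the head of the osteogenic program. Capitals mark the motif, no other motif was searched, and each sequence is the 250 bases before a RefSeq start site (GRCm38.p6), 5′ to 3′ on the gene's strand. Spp1 (chr5:104434861-104435110, plus strand) and Bglap (chr3:88384467-88384716, minus strand) each held 1 match, whose first base lay 128 and 132 bases before the start. Ibsp (chr5:104299037-104299286, plus strand) held none.
Spp1: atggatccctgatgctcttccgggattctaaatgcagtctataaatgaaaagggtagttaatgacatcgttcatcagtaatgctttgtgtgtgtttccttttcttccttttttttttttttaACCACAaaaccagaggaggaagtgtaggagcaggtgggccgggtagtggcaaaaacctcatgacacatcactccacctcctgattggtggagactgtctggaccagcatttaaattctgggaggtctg
Bglap: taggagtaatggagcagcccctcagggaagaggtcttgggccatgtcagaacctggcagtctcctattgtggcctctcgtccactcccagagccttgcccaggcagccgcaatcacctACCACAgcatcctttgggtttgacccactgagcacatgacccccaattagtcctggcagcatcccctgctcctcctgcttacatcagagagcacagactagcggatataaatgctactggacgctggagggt
Ibsp: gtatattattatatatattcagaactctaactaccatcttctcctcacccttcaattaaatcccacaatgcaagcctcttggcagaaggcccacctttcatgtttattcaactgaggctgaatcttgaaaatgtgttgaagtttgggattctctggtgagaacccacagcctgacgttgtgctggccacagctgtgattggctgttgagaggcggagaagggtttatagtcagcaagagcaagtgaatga
The Runx2 window also held 1 match, 80 bases before the start. Neither of the Alpl windows, the other Spp1 window nor the Sox5 window held one. Of 32851 promoters of the same length, 14.05% held the letters on either strand. A match is a description of the sequence and not evidence of binding. Of the 3 genes shown, Spp1 alone was measured, while Bglap, which held the motif, and Ibsp, which did not, were both not well above background.

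**Figure D1:**
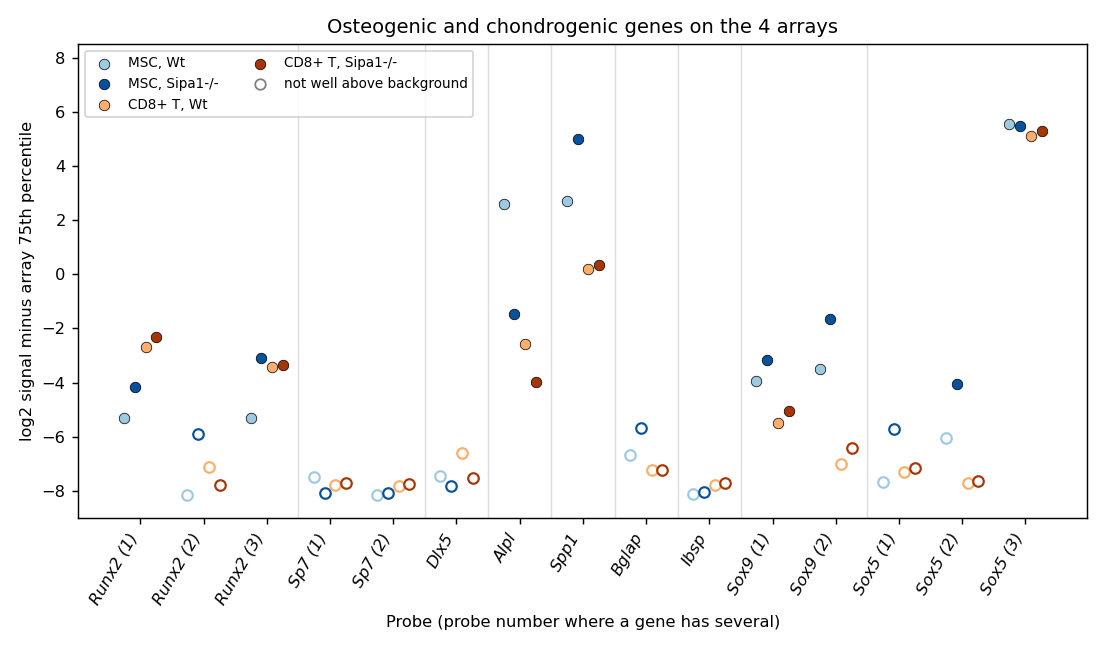
Each point is the log2 signal of 1 probe on 1 array relative to that array's 75th percentile, for the 15 probes of the 9 genes, with open symbols where the probe was not well above background. Spp1 and Alpl stood well apart between the MSC arrays in opposite directions, and Sp7, Dlx5, Bglap and Ibsp had open symbols on every array.

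Across the 9 genes, the comparison of Sipa1-/- with Wt MSCs gave 2 genes at least 2-fold higher (Runx2 and Spp1), 1 at least 2-fold lower (Alpl) and 2 within 2-fold (Sox9 and Sox5). The other 4 genes were not measured. The median log2 ratio of the 5 was 0.78, against 0.04 over all 15279 genes measured. Of all genes in the MSC pair, 19.3% were higher by 2-fold or more in the knockout and 11.3% lower by as much. In the CD8+ T pair the same 5 genes were measured, with 0 higher by 2-fold or more and 1 (Alpl) lower by as much. The background there was 2.66% higher and 1.4% lower among 14320 genes, with a median of -0.02 over all genes and 0.18 over the 5. So few genes were measured that these counts describe the genes and say nothing of the group as such.

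Runx2, the master regulator of osteoblast commitment, was represented by 3 probes. The first read -5.29 in Wt MSCs, -4.15 in Sipa1-/- MSCs, -2.68 in Wt CD8+ T cells and -2.32 in Sipa1-/- CD8+ T cells. A second read -5.31, -3.11, -3.41 and -3.33. Both probes had their lowest value in Wt MSCs, whereas the third was not well above background on any array. Averaged over the first 2 probes, Runx2 was 3.19-fold higher in Sipa1-/- than in Wt MSCs (log2 ratio 1.67, with 1.14 and 2.20 for the single probes). The probes agreed in direction and differed in size. The probe with 1.14 is listed under a protein-coding RefSeq transcript of Runx2, and the probe with 2.20 under a non-coding transcript. The average thus mixes 2 types of transcript, and the coding probe alone was 2.21-fold higher. The Wt MSC signals lay close to the faintest probe called well above background on that array (-5.86). With normexp background correction the averaged ratio was 0.45, less than 2-fold. In CD8+ T cells the Runx2 ratio was 0.22. Between the sorts, Runx2 was lower in MSCs than in CD8+ T cells by 2.26 log2 units in Wt mice. In Sipa1-/- mice the ratio was -0.80, within 2-fold. That value averages probes that differed in sign, -1.83 for the coding and 0.23 for the non-coding transcript. With normexp the Wt ratio was -0.81, also within 2-fold.

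Sp7, which acts after Runx2 in osteoblast commitment, was not well above background on any array with either of its probes, which read between -8.14 and -7.49. Dlx5 read -7.46 in Wt MSCs, -7.82 in Sipa1-/- MSCs, -6.59 in Wt CD8+ T cells and -7.52 in Sipa1-/- CD8+ T cells, none well above background. No fold is given for either gene, since both sides of each ratio lay in the background.

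Alpl, the phosphatase that frees phosphate for mineral, had the largest genotype ratio of the 5 measured genes in both pairs. Its single probe read 2.61 in Wt MSCs, -1.47 in Sipa1-/- MSCs, -2.58 in Wt CD8+ T cells and -3.99 in Sipa1-/- CD8+ T cells, all well above background. It was thus highest in Wt MSCs and lower in the knockout in both populations. Alpl was 16.8-fold lower in Sipa1-/- MSCs (log2 ratio -4.07) and 2.65-fold lower in Sipa1-/- CD8+ T cells (log2 ratio -1.40), and the second value was less than 2-fold (-0.49) with normexp. Marker lists of other cell types were read beside it, and not every list followed Alpl in both pairs. All 11 B lineage markers measured in the MSC pair were at least 2-fold lower in the knockout, with a median log2 ratio of -4.16, and 7 of 8 pan-leukocyte markers were too, with a median of -1.69. The share over all genes of that pair was 11.3%. Neutrophil markers differed little in MSCs (median 0.22), but in the CD8+ T pair 8 of 9 were at least 2-fold lower in the knockout, with a summed signal of 639 in Wt and 334 in Sipa1-/- cells. Of the 11 B lineage markers measured in the CD8+ T pair, 3 were at least 2-fold lower in the knockout, and the median was -0.17. The share of all genes lower by as much in the CD8+ T pair was 1.4%. The CD45- gate of the MSC sort and the TCRb+ CD8+ gate of the T cell sort are meant to leave these cells out. The part of these cells in the Alpl difference was not tested.

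Spp1, a phosphorylated matrix protein that binds integrins, had 1 probe, well above background on all 4 arrays. It read 2.72 in Wt MSCs, 4.98 in Sipa1-/- MSCs, 0.18 in Wt CD8+ T cells and 0.35 in Sipa1-/- CD8+ T cells. The gene was higher in both MSC samples than in either T cell sample, and highest in Sipa1-/- MSCs. The log2 ratio of Sipa1-/- to Wt was 2.26 for MSCs, whereas the CD8+ T pair gave 0.18. Macrophages, which the CD45- gate of the MSC sort is meant to remove, are another source of osteopontin. Macrophage markers summed to 12.7 in Wt MSCs and 20.9 in Sipa1-/- MSCs. Of the 14 measured there, 8 were at least 2-fold higher, with a median of 1.04. The ratios ran from -0.39 (Cd14) to 1.95 (Gpnmb), and Cd163 was not well above background in Wt MSCs. On the CD8+ T arrays those markers summed to 43.2 in Wt and 38.3 in Sipa1-/- cells. Fibroblast markers were higher too in the MSC pair, 10 of 14 at least 2-fold, with a median of 1.6. Of all genes in that pair, 19.3% were higher by 2-fold or more. The part of either cell type in the Spp1 difference was not tested.

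Bglap encodes osteocalcin, the small calcium-binding protein of mature osteoblasts, and lies beside Bglap2 and Bglap3, which are nearly identical in sequence, so probes may not separate them. Bglap itself read -6.69 in Wt MSCs, -5.67 in Sipa1-/- MSCs, -7.25 in Wt CD8+ T cells and -7.23 in Sipa1-/- CD8+ T cells, none well above background. Bglap2 read -3.45, -5.36, -6.18 and -5.98, and was well above background in the MSCs only. Bglap3 read -4.42, -5.68, -6.44 and -6.63 with the same calls. Both were lower in Sipa1-/- than in Wt MSCs, with log2 ratios of -1.91 and -1.26, in the direction of Alpl and opposite to Spp1. Because the CD8+ T signals lay in the background, the fold against them is only a bound, taken from the faintest signal called well above background. Bglap2 was at least 4.32-fold higher in Wt MSCs than in Wt CD8+ T cells, and Bglap3 at least 2.20-fold. In Sipa1-/- mice, where both MSC signals lay close to the faintest one called well above background (-5.79), the bound was 1.09-fold for Bglap2 and none could be given for Bglap3. Ibsp, an acidic glycoprotein that nucleates mineral, read -8.12, -8.05, -7.79 and -7.73 in the 4 samples, none well above background.

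Sox9, the factor required for chondrocyte commitment, had 2 probes. The first read -3.95 in Wt MSCs, -3.17 in Sipa1-/- MSCs, -5.48 in Wt CD8+ T cells and -5.05 in Sipa1-/- CD8+ T cells, and passed the flags on all. The second read -3.50, -1.67, -7.00 and -6.43, and was well above background in the MSCs only. Both probes were higher in MSCs than in T cells, and both were higher in Sipa1-/- MSCs. The log2 ratio of Sipa1-/- to Wt MSCs was 0.78 for the first probe, which gives the gene its value, and 1.83 for the second, whose spot in Sipa1-/- MSCs carried a flag for uneven local background. With all the flags required on at least 1 array of the pair instead of both, the gene's ratio was 1.31, past 2-fold. In CD8+ T cells it was 0.44. The second probe was at least 4.17-fold higher in MSCs than in CD8+ T cells of Wt mice, and at least 14.1-fold higher in Sipa1-/- mice. The bound in Sipa1-/- mice rests on the spot flagged for uneven local background. The first probe, which passed the flags, was 3.68-fold higher in MSCs there.

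Sox5, which acts with Sox9 and Sox6 on cartilage genes, had 3 probes. One bright probe read 5.56 in Wt MSCs, 5.46 in Sipa1-/- MSCs, 5.09 in Wt CD8+ T cells and 5.27 in Sipa1-/- CD8+ T cells. It was nearly level across the samples, with a ratio of -0.10 between the MSC arrays and 0.18 between the CD8+ T arrays, and no other Sox5 probe passed the flags on both arrays of a pair. The second read -6.04, -4.06, -7.69 and -7.65, and was well above background in Sipa1-/- MSCs alone, where it was at least 3.48-fold higher than in Wt MSCs. The third read -7.69, -5.73, -7.31 and -7.16, none well above background. The value of -0.10 therefore rests on the bright probe alone, and the bound of the second probe differs from it.

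Across the sorted populations of Wt mice, Alpl, Spp1 and Sox9 were at least 2-fold higher in MSCs than in CD8+ T cells, Runx2 was at least 2-fold lower and Sox5 was within 2-fold. The log2 ratios were 5.19 for Alpl, 2.54 for Spp1, 1.53 for Sox9, 0.47 for Sox5 and -2.26 for Runx2. Over the 14207 genes measured in that pair, 17.3% were higher in MSCs by 2-fold or more and 12.8% lower by as much. In Sipa1-/- mice the same 3 genes were at least 2-fold higher in MSCs and 0 were at least 2-fold lower, against backgrounds of 21.9% higher and 18.7% lower among 14275 genes. Spp1 was highest in order there, with a ratio of 4.63, followed by Alpl (2.52), Sox9 (1.88), Sox5 (0.18) and Runx2 (-0.80). The order of Alpl and Spp1 thus differed between the genotypes. Alpl and Spp1 stayed past 2-fold under every alternative that gave them a value, but Sox9 did not: with normexp its ratio was 0.23 in Wt and 0.40 in Sipa1-/- mice. Sox5 in Sipa1-/- mice passed 2-fold (1.89) with flags required on 1 array, and Runx2 there did so in the other direction for its brightest probe (-1.83), with median scaling (-1.03) and with quantile normalization (-1.01). The 2 comparisons use different arrays, and the difference between them has no test.

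Genes whose levels over the 4 arrays lay closest to each measured member, after centring each gene on its own mean, were found among 13740 genes measured on all arrays. The distance is the root mean square difference in log2 units, and with 4 points it is a description only. Spock2 (0.076), Atxn1 (0.090) and Gdpd5 (0.10) were nearest to Runx2. Lrrn3 (0.14), Vpreb3 (0.24), one of the B lineage markers, and Erg (0.27) were nearest to Alpl. For Spp1 they were Fndc4 (0.056), Adhfe1 (0.062) and Mgarp (0.11), and for Sox9 Cacnb1 (0.051), Wdfy3 (0.063) and Card14 (0.066). Sox5, by its bright probe, was nearest to 2810002D19Rik (0.010), Ermap (0.018) and Dtd2 (0.023). None of the nearest genes was itself on the skeletal lists.

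**Figure D2:**
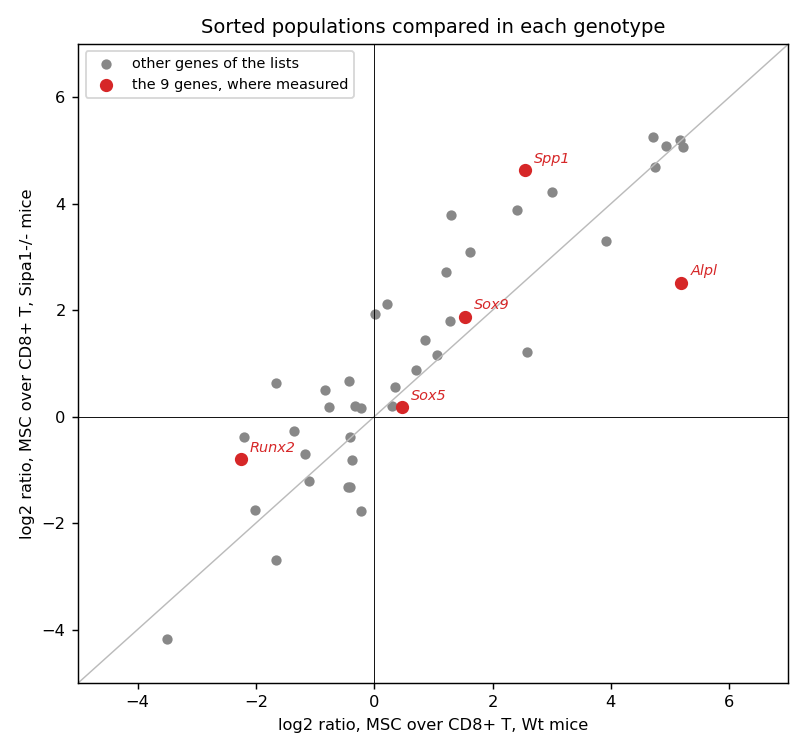
Each point is 1 gene of the skeletal lists measured in both pairs, with the log2 ratio of MSCs over CD8+ T cells in Wt mice on the x axis and in Sipa1-/- mice on the y axis, and the line marks equal ratios. Alpl (5.19 and 2.52) fell under the line, and Spp1 (2.54 and 4.63) and Runx2 (-2.26 and -0.80) lay over it.

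Bone and cartilage genes were also read as 7 lists with 83 genes, the 9 among them. Of the 59 measured in the MSC pair, 40.7% were higher by 2-fold or more in the knockout and 8.47% lower, against 19.3% and 11.3% of all genes. On the same arrays 10 of 14 fibroblast, 8 of 14 macrophage and 5 of 8 pericyte markers were at least 2-fold higher, and all 11 B lineage markers lower. Their part in the list counts was not tested. Among 12 osteoblast transcription factors, 9 were measured in the MSC pair, of which 2 were at least 2-fold higher in Sipa1-/- cells and 0 lower, a share near that of all genes, with a median of 0.26. The higher ones were Runx2 and Twist1 (1.65), a factor of mesenchymal progenitors that restrains Runx2, which read -1.38 in Wt and 0.27 in Sipa1-/- MSCs. The lowest were Cbfb, the partner subunit of Runx proteins (-0.59, from 4.22 to 3.64), and Runx3 (-0.45). Neither passed 2-fold.

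Of 22 osteoblast matrix and mineral genes, 16 were measured in the MSC pair, and Sipa1-/- MSCs had 8 higher by 2-fold or more and 3 lower by as much (median 0.97), against 19.3% and 11.3% of all genes. Smpd3, a sphingomyelinase needed for bone mineral, was highest (3.60) and read -1.41 in Wt and 2.19 in Sipa1-/- MSCs. Enpp1, which makes the mineral inhibitor pyrophosphate, followed (2.28, from -2.63 to -0.35). The 3 lower genes were Alpl, Bglap2 and Bglap3. Probes may not separate Bglap2 from Bglap3, so these may not be independent counts. In Sipa1-/- MSCs they read -5.36 and -5.68, near the faintest signal called well above background (-5.79).

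Of 7 chondrocyte transcription factors, 6 were measured, with 0 at least 2-fold higher, 2 at least 2-fold lower and a median of -0.43. Among all genes of the MSC pair, 19.3% were higher by 2-fold or more and 11.3% lower by as much. Sox9 was the highest of them (0.78) and Sox6 next (0.00, at -2.66 on both arrays). Foxc1, a forkhead factor of skeletal mesenchyme, was lowest (-1.57, from -1.01 to -2.58), and Mef2c, which drives chondrocyte hypertrophy and is also used by B cells, followed (-1.15, from 0.11 to -1.04). Of 21 cartilage matrix genes, 9 were measured and 4 were at least 2-fold higher, 0 lower, with a median of 0.57. The shares over all genes were again 19.3% and 11.3%. Comp, a matrix protein of cartilage and tendon, was highest (2.01), followed by Chst11, which sulfates chondroitin (1.68). Col11a2 (-0.46) and Ihh (-0.17) were the lowest.

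**Figure D3:**
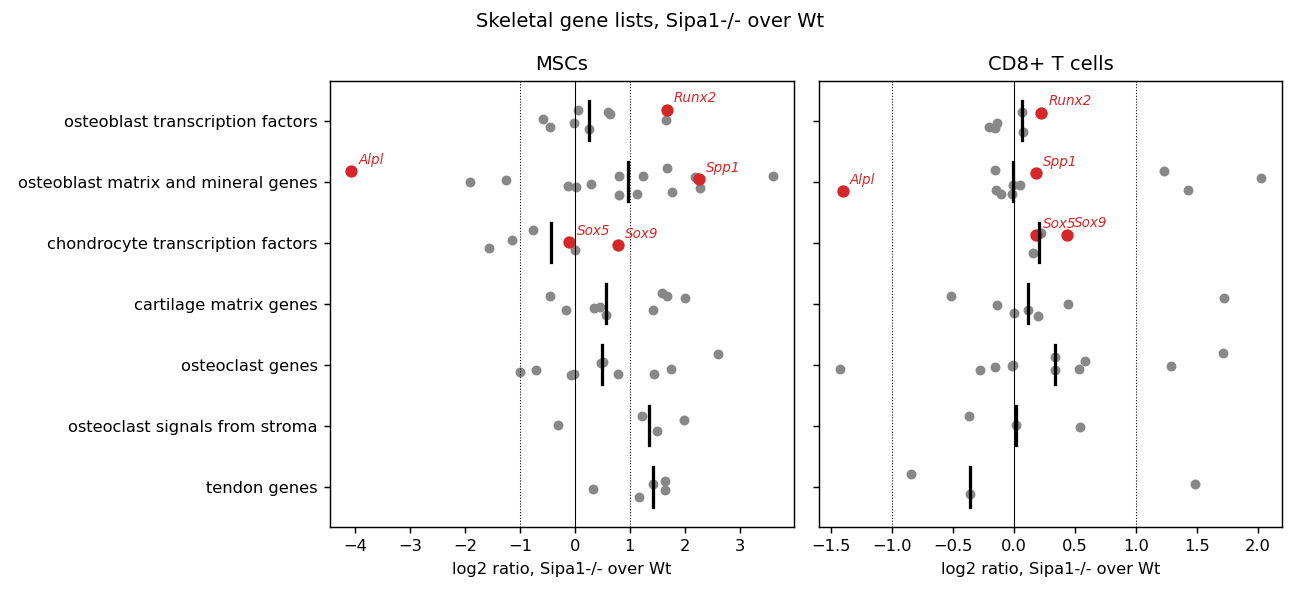
Each point is the log2 ratio of Sipa1-/- over Wt for 1 measured gene in MSCs (left) or CD8+ T cells (right), by list, with members in red, black bars for list medians and dotted lines at 2-fold; the x axes differ in range. In MSCs the osteoblast matrix list had 8 genes at least 2-fold higher while Alpl stood apart at -4.07.

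Osteoclasts, which resorb bone and come from the macrophage line, formed the other side of the skeletal lists. Of 12 osteoclast genes, 10 were measured in the MSC pair, with 3 at least 2-fold higher, 0 lower and a median of 0.50, where 19.3% of all genes were higher, so 3 of 10 is not far from that share. The highest were Atp6v0d2, a proton pump subunit (2.61, on 1 probe that read -5.72 in Wt MSCs, near the faintest signal called well above background), and Ctsk, the collagen-cleaving protease cathepsin K (1.75, from 4.32 to 6.08). Ctsk is also made by fibroblasts. Tnfrsf11a, the receptor RANK, was lowest (-0.9993, just short of 2-fold, with -1.85 and -0.15 for its probes), followed by Nfatc1 (-0.71), and Calcr was not well above background on any array. All 4 stromal genes that signal to osteoclasts were measured, and 3 were at least 2-fold higher: Il34 (1.99) and Csf1 (1.49), both ligands of the macrophage receptor, and Tnfrsf11b (1.22), the decoy that blocks RANK ligand. RANK ligand itself (Tnfsf11) had a ratio of -0.31. Of 5 tendon genes, 4 were at least 2-fold higher, led by Mkx (1.65) and Egr1 (1.64), with Scx at 1.16 and Tnmd at 0.34, and a median of 1.42. Mkx rested on 1 of its probes.

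The CD8+ T pair measured 46 genes of the skeletal lists, and 15.2% of them were higher by 2-fold or more in the knockout and 4.35% lower, against 2.66% and 1.4% of all genes. Of 11 osteoblast matrix genes measured, 3 were higher by 2-fold or more and 1 (Alpl) lower (median -0.01). The higher ones were Mgp (2.03), Sparc (1.43) and Pth1r (1.23), and of the cartilage genes Col2a1 (1.72) was higher. These 4 genes, named after their values were seen, were all higher in MSCs than in CD8+ T cells of Wt mice, by 4.93, 3.92, 4.70 and 5.22 log2 units. Fibroblast markers moved with them: in the CD8+ T pair 14 of 15 were at least 2-fold higher in the knockout (median 1.67). Their part in these ratios was not tested. Osteoblast transcription factors had 0 genes past 2-fold in either direction among 7 measured, and chondrocyte factors 0 among 4. Osteoclast genes had 2 higher by 2-fold or more and 1 lower among 11 measured, and tendon genes 1 higher among 3. The higher ones were Ctsk (1.72), Atp6v0d2 (1.28) and Thbs4 (1.48). Between the sorts of Wt mice, Ctsk and Thbs4 were higher in MSCs, by 5.17 and 4.75 log2 units. Atp6v0d2 went the other way, with a ratio of -0.82.

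**Figure D4:**
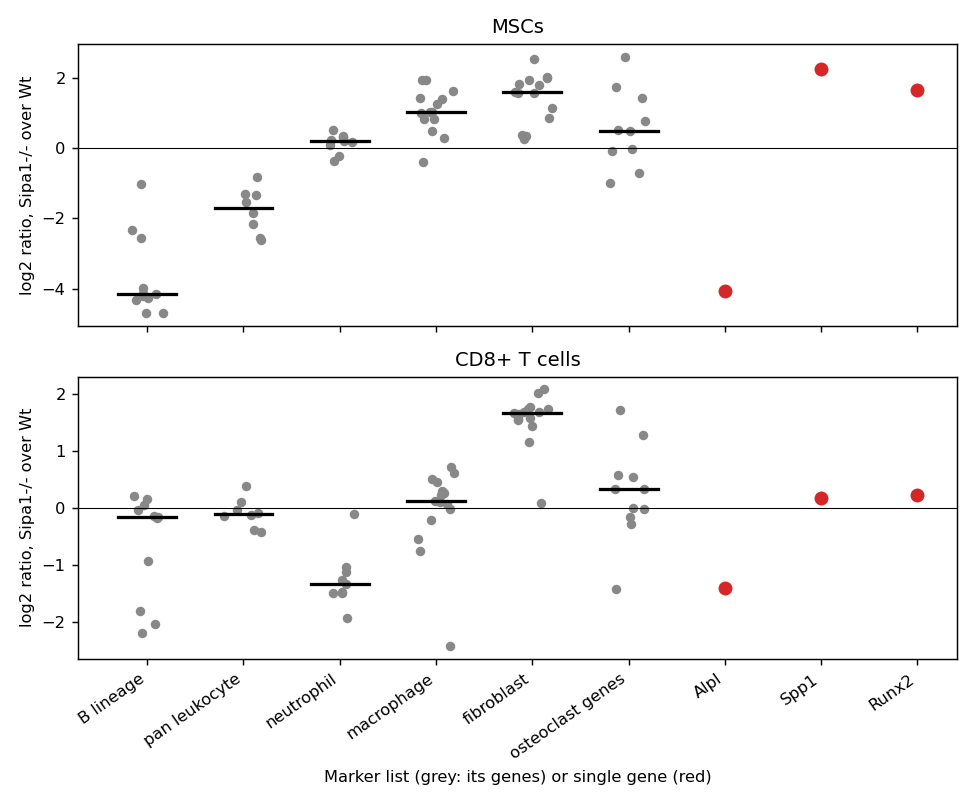
Log2 ratios of Sipa1-/- over Wt in MSCs (top) and CD8+ T cells (bottom) for the genes of each marker list (grey points, black bar at the median) beside Alpl, Spp1 and Runx2 (red); the y axes differ in range. Alpl was at -4.07 in the MSC panel and -1.40 in the CD8+ T panel, where the B lineage medians were -4.16 and -0.17 and the neutrophil medians 0.22 and -1.33.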

How the data were processed

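The deposited files were the scanner output of 4 single-colour Agilent arrays (SurePrint G3 Mouse), which the authors made with Feature Extraction. The file headers give version 12.0.3.1 and the submitters' processing notes 9.1. The deposited values used were processed signal intensity, background-subtracted by that software and not normalized between arrays. A table of the series, used as an alternative, held the same intensity multiplied by 1 constant per array, and how the authors set the constants is not given in the sources used here.

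Control spots were left out (59305 of 62976 spots remained). Levels were log2 processed intensity minus each array's 75th percentile over these spots, which was 472, 459, 414 and 378 for Wt MSCs, Sipa1-/- MSCs, Wt and Sipa1-/- CD8+ T cells. Spots of a probe were averaged, then probes of a gene. Probes were named through RefSeq accessions (57.6% of spots), and an accession of several symbols was left out. A gene was measured in a pair where a probe was unsaturated, uniform in spot and background, positive and well above background on both arrays, the flags the study states. Scaling to a percentile assumes that it marks the same amount of RNA on each array. The precision is limited by the number of arrays, 1 per condition.

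The members and the lists were chosen with earlier results of these data known. Text names the 9 genes, the 2 highest and 2 lowest of each of 7 skeletal lists by MSC ratio, the 3 genes with the nearest profile to each member measured on all arrays, and 10 marker lists by counts, sums and medians. Bglap3, Calcr, Mgp, Sparc, Pth1r, Col2a1, Thbs4 and the single marker genes were named after their values were seen. The at least N-fold bounds use, for the dim array, the higher of the probe's own level and the lowest level well above background. Motif matches were exact, in the 250 bases before the start, for the 6 members with a promoter in the set searched. Sp7, Dlx5 and Sox9 had no promoter in that set and were not searched. The 9 alternatives were other flag rules, scalings (median, quantile, the series table), normexp with offset 50, the brightest probe only, and genes above the median signal. The fold calculation was tested on simulated data. Python 3.11.15, numpy 2.4.6, pandas 2.3.3, matplotlib 3.10.9, R 4.3.3 and limma 3.58.1 were used.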

Additional observations from a re-analysis of the deposited data

Results flagged for a closer look

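Of the genes named, 4 had a genotype ratio past 2-fold in MSCs and an opposite sign in CD8+ T cells larger than the median SD between probes. The difference was not tested in any of them. Mef2c had a log2 ratio of Sipa1-/- over Wt of -1.15 in MSCs, against 0.22 in CD8+ T cells. Chst11 had 1.68 in MSCs and -0.14 in CD8+ T cells. Egr1, an immediate early gene, had 1.64 in MSCs and -0.85 in CD8+ T cells. Scx, a tendon transcription factor, had 1.16 in MSCs and -0.36 in CD8+ T cells.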

How the results depend on the processing

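Over 46 results (genotype and population ratios of the 5 measured genes, medians of the lists and of all genes, and counts past 2-fold), 402 values were computed under 9 alternatives, of which 240 stayed within the spread between probes or within 1.5 times the count, 162 moved further and 0 called ratios changed sign. In MSCs, the Runx2 ratio of 1.67 was 1.86 without flags, 1.53 with median scaling, 1.88 with the authors' table, 1.14 for the brightest probe and 0.45 with normexp. Alpl was -4.21, -3.87 and -3.66 with median scaling, the authors' table and normexp. Spp1 was 2.12 and 2.47 with median scaling and the authors' table. Sox9 was 1.31 with flags required on 1 array or on none, 0.64 with median scaling, 0.99 with the authors' table and 0.36 with normexp. Sox5 was 0.94 with flags on 1 array, 1.28 without flags, -0.24 with median scaling, 0.11 with quantile normalization and 0.10 with the authors' table. In CD8+ T cells, Runx2 was -0.068 without flags, 0.072 with median scaling, 0.11 with quantile normalization, 0.35 with the authors' table and 0.36 for the brightest probe. Alpl there was -1.55, -1.27 and -0.49 with median scaling, the authors' table and normexp, Spp1 was 0.029 and 0.31, and Sox5 was 0.032 and 0.31 with median scaling and the authors' table. Sox9 there was 0.29 with median scaling, 0.29 with quantile normalization, 0.57 with the authors' table and 0.19 with normexp. For MSCs over CD8+ T cells, Runx2 (-2.26 in Wt, -0.80 in Sipa1-/- mice) was -1.85 and 0.084 without flags, -2.49 and -1.03 with median scaling, -2.48 and -1.01 with quantile normalization, -1.80 and -0.28 with the authors' table, -2.62 and -1.83 for the brightest probe, and -0.81 and -0.52 with normexp. Alpl was 4.96 and 2.30 with median scaling, 5.64 and 3.05 with the authors' table, and 4.35 and 1.18 with normexp, and Spp1 in the same order was 2.31 and 4.40, 2.99 and 5.15, and 2.33 and 4.37. Sox9 was 2.51 in Wt mice with flags on 1 array, 2.51 and 3.32 without flags, 1.30 and 1.66 with median scaling, 1.25 and 1.63 with quantile normalization, 1.99 and 2.40 with the authors' table, and 0.23 and 0.40 with normexp. Sox5 was 0.23 and -0.038 with median scaling and 0.92 and 0.71 with the authors' table, and in Sipa1-/- mice 1.89 with flags on 1 array, 1.73 without flags and 0.44 with quantile normalization. Fewer or more genes enter under the flag and signal alternatives. In the MSC pair, the 2952 genes at least 2-fold higher became 1826 (normexp) and 1307 (only genes above the median signal), and the 1734 lower became 902 (the latter). In CD8+ T cells, the 381 higher and 201 lower became 680 and 371 with flags on 1 array, 1058 and 633 without flags, 108 and 98 with normexp, and 66 and 70 above the median signal. For MSCs over CD8+ T cells in Wt mice, the 2453 higher became 3895 with flags on 1 array, 4183 without flags and 859 above the median signal, and the 1820 lower became 1081 with the authors' table and 862 above the median signal. In Sipa1-/- mice, the 3123 higher became 4737, 5017 and 1306, and the 2663 lower became 1357 and 1378, in the same order. For the other changes, the cause was not tested.

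Of the genes past 2-fold, 63.0% were higher in Sipa1-/- MSCs and 65.5% in Sipa1-/- CD8+ T cells, and 57.4% and 54.0% were higher in MSCs than in CD8+ T cells of Wt and Sipa1-/- mice. With the authors' table these shares were 74.1%, 76.3%, 76.6% and 76.2%, and with median scaling 54.0%, 52.5%, 45.5% and 42.9%. In CD8+ T cells the share was also 52.4% with normexp and 48.5% above the median signal. Median scaling shifted the median of all genes by -0.14, -0.15, -0.23 and -0.22 in the 4 pairs, and the authors' table by 0.21, 0.13, 0.45 and 0.53. Of the list medians in CD8+ T cells, that of chondrocyte factors (0.20) stayed above 0 in all alternatives, and the other 6 changed sign in at least 1: osteoblast factors (0.06) ranged from -0.11 to 0.19, osteoblast matrix (-0.01) from -0.15 to 0.18, cartilage matrix (0.11) from -0.04 to 0.24, osteoclast genes (0.33) from -0.01 to 0.47, osteoclast signals (0.02) from -0.37 to 0.25 and tendon genes (-0.36) from -0.51 to 0.32. In MSCs, list medians moved by over 1.5 times for tendon genes (1.42; 0.72 with normexp), osteoblast matrix (0.97; 1.77 above the median signal), cartilage matrix (0.57; 0.28 without flags, 1.58 above the median signal), osteoblast factors (0.26; from 0.019 without flags to 0.47 with the authors' table) and chondrocyte factors (-0.43; -0.76 with flags on 1 array or none, -0.23 with the authors' table), with no change of sign. Runx2 and Sox9 gave no value among genes above the median signal in any pair. Keeping saturated spots changed nothing, as none were saturated. No paired analysis was possible because the conditions hold a single array each. Dim probes, such as those of Runx2 in Wt MSCs, limit what signal over background can show.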

Other observations

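Some other marker lists were also read in the MSC pair. Over all genes of that pair, the shares past 2-fold were 19.3% upward and 11.3% downward. Of 8 pericyte markers measured, 5 were at least 2-fold higher in the knockout (median 1.15). Of 7 endothelial markers measured, 2 were at least 2-fold higher and 1 lower, with a median of -0.03. Of 8 skeletal muscle markers, 1 was at least 2-fold higher (median 0.50), and of 2 adipocyte markers measured, 1 (median 0.68). The endothelial and skeletal muscle counts were not far from the all-gene shares, and 2 adipocyte markers are too few to compare. T cell markers in the MSC pair had 3 of 8 higher and 3 lower.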
